A study of Homo sapiens with 6 samples.

Results

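The aldo-keto reductases AKR1A1, AKR1B1, AKR1B10, AKR1C1, AKR1C2 and AKR1C3 and the aldehyde dehydrogenases ALDH2, ALDH3A2, ALDH7A1 and ALDH9A1 were followed in RNA-seq of A549-GFP and A549-TIPARP cells. These 10 genes were taken by symbol, from a list proposed as reductases and dehydrogenases at high levels in KEAP1-mutant A549 cells, and not by their difference between the lines, though earlier results of these data were known when they were chosen. All 10 were among the 13181 analysed genes, of 53826 entries in the tables. A549 is a human lung adenocarcinoma line. A549-GFP cells carry the retroviral vector pMXs-GFP and served as the control, and A549-TIPARP cells carry pMXs-TIPARP, so both lines were transduced and both share the A549 background. TIPARP is a mono-ADP-ribosyltransferase that the aryl hydrocarbon receptor induces. Each line had 3 libraries, from experiments numbered 1 to 3, and whether these were separate cultures is not given in the sources used here, so the p-values measure only the spread between these libraries, which may be technical. Whether a line was a clone or a pool of transduced cells is not given either. Levels are TPM, the share of transcripts after scaling by length, so that they can be compared between genes. TPM carries no read depth, so the depth is unknown and no counting error could be given.

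Aldo-keto reductases are mostly cytosolic enzymes that use NADPH to reduce aldehydes and ketones to alcohols, with substrates that range from sugars and lipid aldehydes to retinal, steroids and prostaglandins. Aldehyde dehydrogenases take the other route and oxidize aldehydes to acids with NAD or NADP. In lung tumor cells with inactive KEAP1, the transcription factor NRF2 escapes degradation, and AKR1B10 and the AKR1C genes are among its best known targets.

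TIPARP itself was at 6.79, 11.4 and 3.68 TPM in the A549-GFP libraries and at 131, 90.5 and 123 TPM in the A549-TIPARP libraries. The difference was 17.2-fold (limma on log2(TPM + 1), adjusted p = 0.0125), and it matches the labels of all 6 libraries. The adjusted p was between 0.0515 and 0.0981 (limma) with library 1 or 3 of either line left out, 0.0965 without a filter on low values and 0.513 with the experiment number as a block, so that these settings end the call. Library 2 of A549-GFP stood apart. Its root mean square deviation from its line mean was 0.62 on the log2 scale over all analysed genes, against 0.19 to 0.40 in the other 5. The summed TPM of 6 epithelial markers was 10776 in that library and between 18538 and 23388 in the others, and the part of this in the results below was not tested. The low sum came from KRT18 (4176 TPM, against 10108 and 11876 TPM in libraries 1 and 3 of the line) and KRT8 (3855 TPM, against 8947 and 9127 TPM), while KRT7 and, of the markers looked at after their values were seen, CDH1 and CLDN4 were higher in library 2 than in libraries 1 and 3. Endothelial markers (5 genes) were listed at the floor of the tables in all 6 libraries, and of 6 mesenchymal stem cell markers COL1A1 was the one analysed, with 1.44 TPM, the floor and 1.31 TPM in A549-GFP cells, against 1.84, 1.64 and 2.56 TPM in A549-TIPARP cells, which did not overlap (limma adjusted p = 0.994).

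The 3 AKR1C genes lie side by side on chromosome 10 (hg38, GENCODE 44). AKR1C1 spans chr10:4963253-4983283 on the plus strand, AKR1C2 spans chr10:4987775-5018031 on the minus strand and AKR1C3 spans chr10:5035354-5107686 on the plus strand, each with 9 exons in its canonical transcript. Their coding sequences are so alike that part of the reads from them cannot tell the genes apart. The parts of the transcripts outside the coding sequence were not compared. With 969 coding bases in each gene, the canonical transcripts hold 6543 bases for AKR1C1, 3215 for AKR1C2 and 1186 for AKR1C3. Most of the AKR1C1 and AKR1C2 transcripts thus lies outside the part compared. AKR1C1 and AKR1C2 were identical at 98.0% of aligned coding bases, with 19 differing positions and a shared run of 186 bases. AKR1C3 was identical to AKR1C1 at 91.4% and to AKR1C2 at 91.0%. Of all windows of 100 bases in the coding sequence of AKR1C1, 18.9% were found unchanged in AKR1C2 and 2.18% in AKR1C3. How long the reads were and how ambiguous ones were assigned is not given in the sources used here, so the split of reads between AKR1C1 and AKR1C2 is uncertain. The 60 coding bases within an exon where AKR1C1 and AKR1C2 differ most lie in exon 2 (coding positions 103 to 162). They are shown for the 3 genes 5′ to 3′ on the coding strand, since reads over such stretches separate the genes. Capitals mark the 15 positions at which the 3 genes do not all share a base. The positions are chr10:4965932-4965991 for AKR1C1, chr10:5001604-5001663 for AKR1C2 and chr10:5096428-5096487 for AKR1C3.
AKR1C1: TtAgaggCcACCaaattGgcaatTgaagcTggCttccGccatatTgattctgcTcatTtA
AKR1C2: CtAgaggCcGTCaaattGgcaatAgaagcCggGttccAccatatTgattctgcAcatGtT
AKR1C3: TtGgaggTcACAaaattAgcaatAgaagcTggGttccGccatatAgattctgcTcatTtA
In these 60 bases AKR1C1 and AKR1C2 differed at 10 positions, AKR1C1 and AKR1C3 at 7, and AKR1C2 and AKR1C3 at 13.

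A stretch of exon 4 (coding positions 382 to 441) shows the opposite case, with AKR1C1 and AKR1C2 identical over 60 bases and AKR1C3 different from both at the 11 positions in capitals. The positions are chr10:4968321-4968380 for AKR1C1, chr10:4999206-4999265 for AKR1C2 and chr10:5098814-5098873 for AKR1C3.
AKR1C1: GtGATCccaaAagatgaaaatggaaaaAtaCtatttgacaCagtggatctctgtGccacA
AKR1C2: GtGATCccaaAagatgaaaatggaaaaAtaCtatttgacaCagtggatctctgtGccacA
AKR1C3: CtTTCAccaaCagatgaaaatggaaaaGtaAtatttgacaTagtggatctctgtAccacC
A read that lies within this stretch can be assigned to AKR1C3, but not to AKR1C1 or AKR1C2 alone.

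The 10 genes spanned a wide range of levels and kept the same order in both lines. By mean TPM over the 6 libraries, AKR1B10 was at rank 13 of the 13181 analysed genes, AKR1C2 at 36, AKR1C1 at 54, AKR1C3 at 59 and AKR1B1 at 173. The aldehyde dehydrogenases were lower, with ALDH2 at rank 260, ALDH3A2 at 832, ALDH9A1 at 2418 and ALDH7A1 at 4243, and the reductase AKR1A1 was at rank 1619. The enzymes at the top were thus reductases of the AKR1B and AKR1C groups, while AKR1A1, ALDH9A1 and ALDH7A1 were the lowest of the 10. No cut for a high level was set, so the description of high levels was not judged for them. In A549-GFP cells the geometric mean level was 6617 TPM for AKR1B10, 2967 TPM for AKR1C2, 2621 TPM for AKR1C1, 2280 TPM for AKR1C3 and 752 TPM for AKR1B1. Below these followed ALDH2 (427 TPM), ALDH3A2 (166 TPM), AKR1A1 (78.5 TPM), ALDH9A1 (56.9 TPM) and ALDH7A1 (25.7 TPM). Neighbors in this order overlapped in their libraries for AKR1C2 and AKR1C1 and for AKR1C1 and AKR1C3. In A549-TIPARP cells the overlapping neighbors were AKR1C1 and AKR1C3, at geometric means of 2192 TPM each, and AKR1B1 and ALDH2, at 728 and 458 TPM. Together the 10 genes took 1.69%, 1.54% and 1.62% of all TPM in the A549-GFP libraries and 1.43%, 1.42% and 1.51% in the A549-TIPARP libraries. The ranges did not overlap, by a narrow margin, and this share was not tested. Its largest part was AKR1B10, whose lines overlapped after rescaling by the median ratio.

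**Figure D1:**
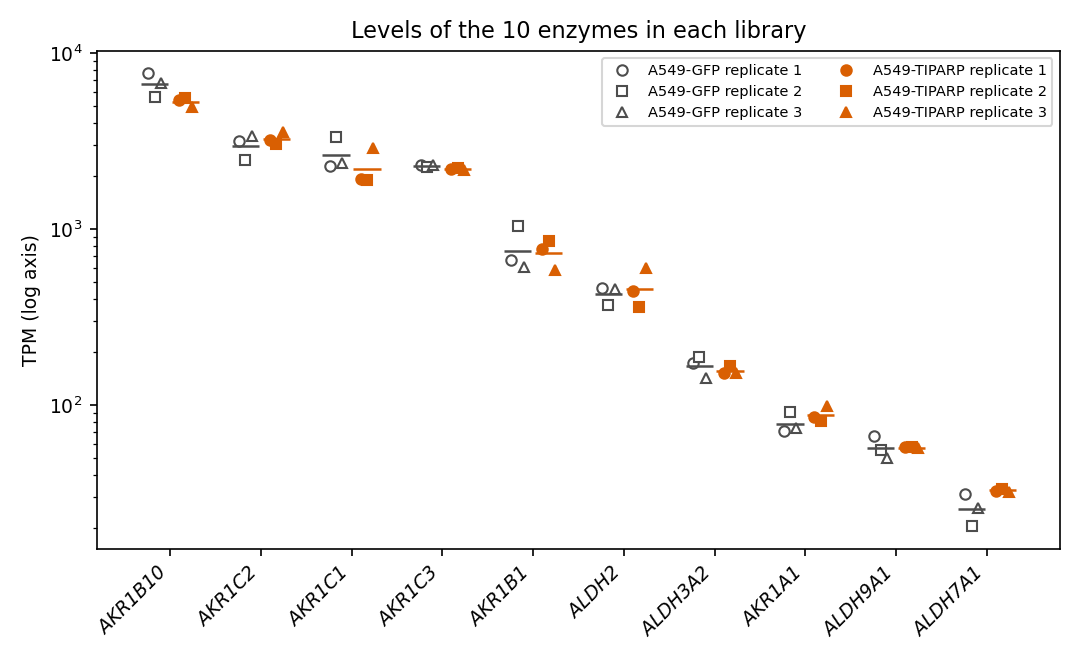
Levels of the 10 genes in each library, in TPM on a log axis, with A549-GFP and A549-TIPARP libraries as points and the geometric mean of each line as a bar. AKR1B10 lies highest, between 4938 and 7637 TPM, ALDH7A1 lies lowest, between 20.6 and 33.6 TPM, and the libraries of both lines lie close together for each gene.

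None of the 10 genes passed the test between the lines. With limma on log2(TPM + 1) and Benjamini-Hochberg adjustment over all 13181 genes, 0 of 10 had an adjusted p under 0.05 (range 0.994 to 0.998), where 0.0152% of all analysed genes did, and 0 of 10 had an unadjusted p under 0.05, where 3.85% of all genes did. No member was past 1.5-fold in either direction, against 8.72% of all genes. The mean level was higher in A549-TIPARP cells for 5 genes and lower for 5. Their median log2 fold change was -0.017, and that of all analysed genes was -0.066. The 95% interval of the difference lay within 2-fold for all 10 genes and within 1.5-fold for 6, so larger differences lay outside the intervals, and smaller ones could not be resolved with 3 libraries a line. In 3 genes the libraries of the lines did not overlap, with AKR1B10 and AKR1C3 lower and ALDH7A1 higher in A549-TIPARP cells, where 8.91% of all analysed genes did not overlap. After each library was rescaled by its median ratio over genes, AKR1B10 and AKR1C3 overlapped and ALDH7A1 did not. Library 2 of A549-GFP was the highest or the lowest of the 6 for 5 members, and it was so for 66.5% of all analysed genes.

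**Figure D2:**
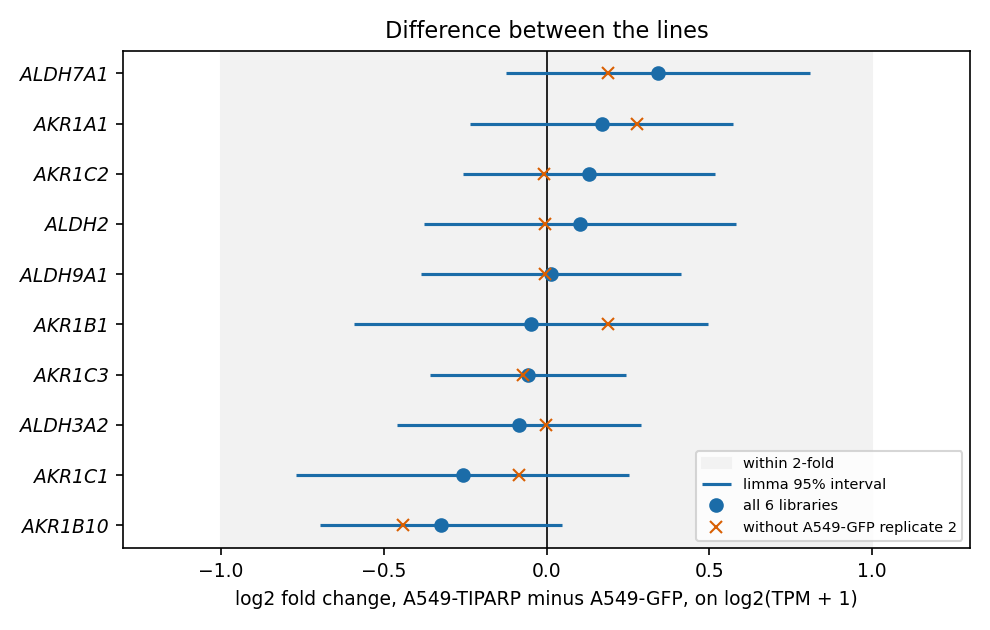
Difference between A549-TIPARP and A549-GFP cells for the 10 genes on the log2(TPM + 1) scale, as the limma estimate (points) with its 95% interval (bars), with the value without library 2 of A549-GFP beside it. Every interval spans 0 and ends within 1 log2 unit of it, the lowest estimate is -0.32 (AKR1B10) and the highest is 0.34 (ALDH7A1).

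AKR1B10, which reduces retinal and lipid aldehydes and is abundant in many lung cancers, was the highest of the 10 genes and had the lowest p among them. It lies at chr7:134527567-134541412 on the plus strand. Its levels were 7637, 5621 and 6749 TPM in A549-GFP cells, against 5397, 5539 and 4938 TPM in A549-TIPARP cells. All A549-TIPARP libraries lay below all A549-GFP libraries, but the lowest A549-GFP library and the highest A549-TIPARP library were close. The mean log2 level was 12.69 ± 0.22 (SD, n = 3) in A549-GFP cells and 12.37 ± 0.09 (SD, n = 3) in A549-TIPARP cells, a difference of 1.25-fold. On the log2(TPM + 1) scale this was -0.32 with an SE of 0.16 and a 95% interval of -0.70 to 0.05 (limma, adjusted p = 0.994), which did not pass the test. Without library 2 of A549-GFP, its lowest control library, the difference was -0.44 on the same scale (SE 0.15). The unadjusted p of AKR1B10 was then 0.0141 and its adjusted p 0.299 (limma), so it did not pass the test there either. When single libraries were left out, the difference stayed negative, between -0.44 and -0.22, and the lowest adjusted p for any of the 10 genes in these fits was 0.299 (limma).

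AKR1B1, the aldose reductase that turns glucose into sorbitol in the polyol pathway, lies near AKR1B10 at chr7:134442356-134459284 on the minus strand. Its levels were 666, 1046 and 611 TPM in A549-GFP cells, against 773, 849 and 587 TPM in A549-TIPARP cells. The lines overlapped, and the control libraries held both a higher value and a wider range. The difference was -0.05 on the log2(TPM + 1) scale (SE 0.24, limma, adjusted p = 0.998), and its direction changed to 0.19 without library 2 of A549-GFP. AKR1B1 and AKR1B10 were identical at 75.8% of coding bases, with no window of 100 bases in common, so reads of these 2 genes can be told apart. The level of AKR1B10 divided by that of AKR1B1 was 11.5, 5.38 and 11.0 in A549-GFP cells and 6.98, 6.52 and 8.41 in A549-TIPARP cells, and library 2 of A549-GFP was the lowest of the 6, so that the lines overlapped.

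AKR1B15, which lies next to AKR1B10 at chr7:134549110-134579875 and is not one of the 10 genes, went the other way in its mean. Its levels were 12.6, 11.7 and 10.8 TPM in A549-GFP cells, against 17.7, 14.1 and 19.7 TPM in A549-TIPARP cells. The lines did not overlap, with a mean 1.45-fold higher in A549-TIPARP cells, but the test was not passed after adjustment (0.50 on the log2(TPM + 1) scale, SE 0.21, limma adjusted p = 0.994). Its coding sequence was identical to that of AKR1B10 at 85.3% of aligned bases, with a shared run of 116 bases, and 2.00% of windows of 100 bases were in common. AKR1B10 stood at 606, 479 and 623 times the level of AKR1B15 in the A549-GFP libraries and at 305, 393 and 251 times in the A549-TIPARP libraries. This ratio was chosen after the values were seen, and it was not tested.

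The AKR1C genes encode hydroxysteroid dehydrogenases. AKR1C1 is best known for the inactivation of progesterone. Its levels were 2282, 3334 and 2367 TPM in A549-GFP cells, against 1929, 1887 and 2892 TPM in A549-TIPARP cells. The lines overlapped, since library 3 of A549-TIPARP lay above libraries 1 and 3 of A549-GFP. The difference was -0.26 on the log2(TPM + 1) scale (SE 0.22, 95% interval -0.77 to 0.25, limma adjusted p = 0.994), and it was -0.08 without library 2 of A549-GFP.

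AKR1C2, which inactivates the androgen dihydrotestosterone, was at 3162, 2450 and 3372 TPM in A549-GFP cells and at 3192, 3026 and 3545 TPM in A549-TIPARP cells. Here library 2 of A549-GFP was the lowest of the 6, while it was the highest for AKR1C1. The difference was 0.13 on the log2(TPM + 1) scale (SE 0.17, 95% interval -0.26 to 0.52, limma adjusted p = 0.994), and it was -0.0079 without that library.

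AKR1C3 makes testosterone from androstenedione and also forms prostaglandin F. Its levels were the steadiest of the reductases, with 2314, 2234 and 2292 TPM in A549-GFP cells, against 2193, 2213 and 2169 TPM in A549-TIPARP cells. The mean log2 level was 11.15 ± 0.026 (SD, n = 3) in A549-GFP cells and 11.10 ± 0.015 (SD, n = 3) in A549-TIPARP cells. The libraries did not overlap, by a narrow margin, and the difference was -0.06 on the log2(TPM + 1) scale (SE 0.13, 95% interval -0.36 to 0.24, limma adjusted p = 0.994), which was 0.0080 after each library was rescaled by its median ratio, a step that raised the difference of all 10 genes by a similar amount. This SE is larger than the spread of the 6 values, because limma draws the variance of each gene toward that of genes at a similar level.

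Because reads of AKR1C1 and AKR1C2 can be exchanged, their summed level was also compared. AKR1C1 and AKR1C2 together were at 5444, 5783 and 5739 TPM in A549-GFP cells and at 5121, 4913 and 6437 TPM in A549-TIPARP cells. The SD of this sum was 184 TPM in A549-GFP cells and 827 TPM in A549-TIPARP cells, where library 3 held the highest value of both genes. The level of AKR1C1 divided by that of AKR1C2 was 0.722, 1.36 and 0.702 in the A549-GFP libraries and 0.604, 0.624 and 0.816 in the A549-TIPARP libraries. In library 2 of A549-GFP alone AKR1C1 exceeded AKR1C2. With AKR1C3 the sum was 7758, 8018 and 8031 TPM (mean 7936 ± 154, SD, n = 3) in A549-GFP cells and 7314, 7126 and 8606 TPM (mean 7682 ± 806, SD, n = 3) in A549-TIPARP cells. The lines overlapped, and the log2 fold change of the sum was -0.05 with all libraries and -0.04 without library 2 of A549-GFP.

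**Figure D3:**
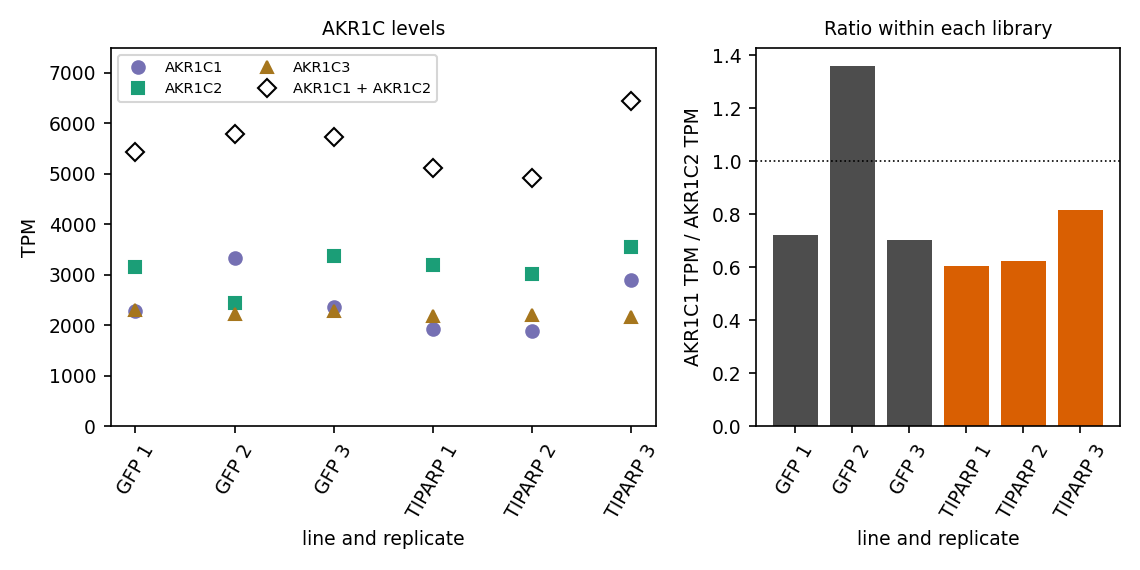
Left, levels of AKR1C1, AKR1C2, AKR1C3 and the sum of AKR1C1 and AKR1C2 in each of the 6 libraries, in TPM, and right, the ratio of AKR1C1 to AKR1C2 in each library as bars, with a dotted line at equal levels. AKR1C1 (3334 TPM) lies above AKR1C2 (2450 TPM) only in library 2 of A549-GFP, where the ratio is 1.36, AKR1C3 lies between 2169 and 2314 TPM throughout, and the sum lies between 4913 and 6437 TPM.

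AKR1A1, an aldehyde reductase with a broad range of substrates that include glucuronate, is encoded on chromosome 1 at chr1:45550543-45570049 (plus strand). Its levels were 71.5, 91.4 and 73.9 TPM in A549-GFP cells, against 85.4, 81.5 and 99.3 TPM in A549-TIPARP cells. The lines overlapped at library 2 of A549-GFP. The difference was 0.17 on the log2(TPM + 1) scale (SE 0.18, 95% interval -0.24 to 0.57, limma adjusted p = 0.994), and it stayed positive, between 0.09 and 0.28, with each library left out in turn.

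Of the 4 aldehyde dehydrogenases among the 10 genes, ALDH7A1 differed most in its mean. The gene lies at chr5:126531200-126595362 (minus strand), and the enzyme, also called antiquitin, acts in lysine breakdown. Its levels were 31.4, 20.6 and 26.2 TPM in A549-GFP cells, against 32.6, 33.6 and 32.3 TPM in A549-TIPARP cells. All 3 A549-TIPARP libraries lay above the A549-GFP libraries and close to each other, and the highest A549-GFP library lay just below them. The mean log2 level was 4.68 ± 0.31 (SD, n = 3) in A549-GFP cells and 5.04 ± 0.029 (SD, n = 3) in A549-TIPARP cells, a difference of 1.28-fold. On the log2(TPM + 1) scale it was 0.34 with an SE of 0.20 and a 95% interval of -0.12 to 0.81 (limma, adjusted p = 0.994), which did not pass the test, and without library 2 of A549-GFP the fold was 1.14.

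ALDH2, the mitochondrial enzyme that oxidizes acetaldehyde from ethanol, lies at chr12:111766887-111817532 (plus strand). Its levels were 464, 368 and 456 TPM in A549-GFP cells, against 445, 362 and 598 TPM in A549-TIPARP cells. The lines overlapped, and library 2 was the lowest of each line. The difference was 0.10 on the log2(TPM + 1) scale (SE 0.21, limma adjusted p = 0.994), and it was -0.09 without library 3 of A549-TIPARP.

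ALDH3A2 encodes the fatty aldehyde dehydrogenase that is lost in Sjögren-Larsson syndrome, at chr17:19648136-19685760 (plus strand). It was at 173, 186 and 143 TPM in A549-GFP cells and at 152, 166 and 153 TPM in A549-TIPARP cells, so that the A549-TIPARP libraries lay within the range of the controls. The log2(TPM + 1) difference was -0.08 (SE 0.16, 95% interval -0.46 to 0.29, limma adjusted p = 0.994). ALDH9A1, which acts in carnitine synthesis, lies at chr1:165662216-165698562 (minus strand). Its levels were 66.5, 55.5 and 50.0 TPM in A549-GFP cells, against 57.6, 57.7 and 57.1 TPM in A549-TIPARP cells. The 3 A549-TIPARP values were nearly equal and lay inside the control range, with a difference of 0.01 on the log2(TPM + 1) scale (SE 0.18, limma adjusted p = 0.998).

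The other genes of both families did not pass the test either. Of 10 other AKR genes 4 were analysed and 3 were listed at the floor in all 6 libraries, and of 15 other ALDH genes 11 were analysed and 3 were at the floor throughout. None of the analysed genes of either family had an adjusted p under 0.05, and AKR1B15 was the one with an unadjusted p under 0.05 (limma). Among the other ALDH genes the mean was higher in A549-TIPARP cells for 8 of 11, with a median log2 fold change of 0.14, and among the other AKR genes for 2 of 4, with a median of -0.06, where 5285 of all 13181 analysed genes had a higher mean and the median was -0.066. ALDH1A1, which makes retinoic acid from retinal, was at a level near that of AKR1B10, with 6060, 2998 and 4404 TPM in A549-GFP cells, against 6338, 5306 and 7123 TPM in A549-TIPARP cells. The lines overlapped, with a 1.44-fold higher mean in A549-TIPARP cells (limma adjusted p = 0.994). Library 2 of A549-GFP was the lowest of the 6, which makes this fold larger. ALDH3A1, which oxidizes aromatic and lipid aldehydes, had a log2 fold change of -0.27 at 1030 to 1986 TPM, and ALDH3B1 one of 0.47 at 140 to 291 TPM, both with overlapping lines. AKR7A2, an aflatoxin aldehyde reductase, had 36.8, 36.6 and 39.1 TPM in A549-GFP cells, against 41.1, 42.4 and 39.8 TPM in A549-TIPARP cells, without overlap but with a log2 fold change of 0.13. AKR1E2 had a log2 fold change of -0.25, with 21.6 TPM in library 2 of A549-GFP and 12.2 to 17.2 TPM in the other 5. Among the other ALDH genes ALDH4A1, an enzyme of proline breakdown singled out after its values were seen, was the one whose lines did not overlap, with 8.74 to 16.2 TPM in A549-GFP cells, against 18.2 to 18.9 TPM in A549-TIPARP cells. AKR1C4, also chosen after its values were seen, was at 13.0 TPM in library 2 of A549-GFP and at 2.71 to 3.23 TPM in the other 5.

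**Figure D4:**
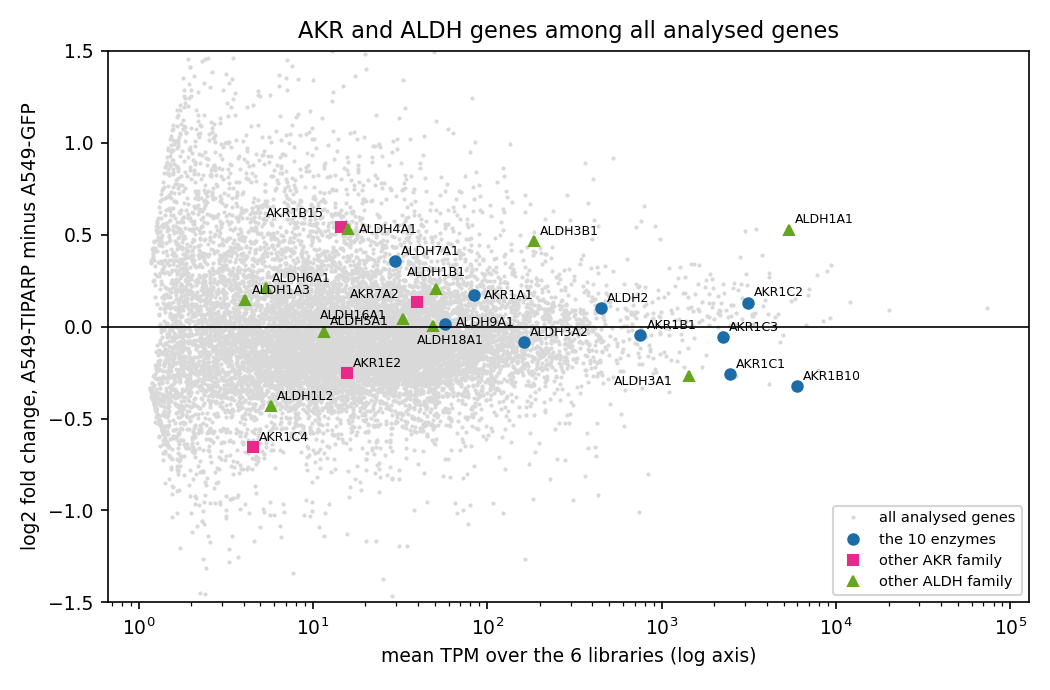
Log2 fold change (A549-TIPARP minus A549-GFP, difference of mean deposited log2 values) against mean TPM over the 6 libraries on a log axis, for all 13181 analysed genes (grey), the 10 enzymes (blue) and the other analysed AKR and ALDH genes (pink and green), with 58 genes outside the drawn range. The 10 enzymes lie between -0.32 and 0.36, of the AKR and ALDH genes AKR1B10 and ALDH1A1 lie farthest to the right, and AKR1C4 is the one past 1.5-fold.

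The regulators and other targets of NRF2 were compared, since AKR1B10 and the AKR1C genes are known NRF2 targets. KEAP1, which holds NRF2 in check, was at 72.6, 78.4 and 69.0 TPM in A549-GFP cells and at 71.1, 68.8 and 58.9 TPM in A549-TIPARP cells, with a log2 fold change of -0.15 (limma adjusted p = 0.994). NFE2L2, the gene of NRF2, was at 60.9, 88.1 and 49.8 TPM in A549-GFP cells and at 48.5, 56.7 and 56.4 TPM in A549-TIPARP cells, with overlapping lines. Of 30 genes on the list, all analysed, 22 had a lower and 8 a higher mean in A549-TIPARP cells, where 7896 of all 13181 analysed genes had a lower one, with a median log2 fold change of -0.12 against -0.066 for all analysed genes, and 0 had an adjusted p under 0.05 (lowest 0.856, limma). MAFK, a small MAF protein that pairs with NRF2, was the gene with the lowest p, with 137, 186 and 176 TPM in A549-GFP cells, against 98.5, 124 and 100 TPM in A549-TIPARP cells. The lines did not overlap, and the log2(TPM + 1) difference was -0.63 with an SE of 0.19 (limma adjusted p = 0.856), which did not pass the test. SRXN1 and TALDO1, chosen after their values were seen, were the other 2 genes without overlap, with log2 fold changes of -0.58 and -0.12, so that 3 of 30 did not overlap, near the 8.91% of all analysed genes. FTL and FTH1, the ferritin genes and the most abundant of the list, had log2 fold changes of 0.09 and 0.05. Library 2 of A549-GFP lowered the control mean of both. FTL was at 12496 TPM there, against 23254 and 23859 TPM in libraries 1 and 3 of A549-GFP. FTH1 was at 6847 TPM there, against 10621 and 9915 TPM.

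Promoter windows from RefSeq (GRCh38.p14, the 250 bases before each start) were found for 8 of the 10 genes, in 11 windows. AKR1B10 and ALDH2 had none. The CCAAT box, a common promoter element searched on both strands, was in 7 of the 11 windows (6 of the 8 genes, among them AKR1C1, AKR1C2 and AKR1C3) and in 32% of 35116 promoters. TGACNNNGC, the core of the element that NRF2 binds, was in none of the 11 windows and in 10.9% of all promoters. GCGTG, the core of the element that the aryl hydrocarbon receptor binds, was in 3 windows, of AKR1B1 and ALDH3A2, and in 32.2% of all promoters. These are matches of letters, and sites farther from the start were not searched.

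The genes closest in pattern to the mean of AKR1B10 and the 3 AKR1C genes were sought by the root mean square difference of the log2 profile, centered on its mean, over the 6 libraries. The mean profile of these 4 genes was 0.09, 0.015 and 0.08 in the A549-GFP libraries and -0.11, -0.12 and 0.04 in the A549-TIPARP libraries, so that it differed little between any of them. The 4 genes were less alike. Library 2 of A549-GFP minus the other A549-GFP libraries was 0.52 for AKR1C1, -0.41 for AKR1C2, -0.35 for AKR1B10 and -0.04 for AKR1C3 (log2). These differences partly cancel in the mean, so the search finds genes with a nearly flat profile. Closeness to each of the 4 genes was not measured. YBX3 was the closest, at a difference of 0.044, followed by SLC25A5 at 0.052, SNHG16 at 0.053, HDDC2 at 0.054 and EIF3D at 0.055.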

How the data were processed

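RNA of A549-GFP and A549-TIPARP cells (3 libraries each) was prepared with a stranded mRNA kit and sequenced in pairs on a NovaSeq instrument. Per the study's methods, the authors used Strand NGS with its default settings and hg38 transcripts for mapping. The deposited tables hold the log2 of TPM for 53826 entries per library. From their values, TPM under 1 had been set to 1 (log2 of 0, the floor). Software version, annotation release and multi-mapping are not given in the sources used here. No counts were used, and no precision from depth could be given.

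Genes with TPM above 2 in at least 1 library (13181) were analysed, as in the study. The fold change is the difference of mean deposited log2 values. The test was limma 3.58.1 (R 4.3.3) on log2(TPM + 1), with its trend option, no block, and p-values adjusted by Benjamini-Hochberg over all genes. It was tested on simulated data. The pseudocount understates changes of low genes. The study names no test for these lists.

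Samples were grouped by their titles.

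The genes named are the 10 enzymes, KEAP1, NFE2L2, TIPARP, the 3 most abundant genes of each list, and listed genes with an adjusted p under 0.05, past 2-fold, or past 1.5-fold without overlap, and the 5 genes closest in pattern. Genes named outside this rule are CDH1, CLDN4, SRXN1, TALDO1, ALDH4A1, AKR1C4 and DHRS9, all chosen after their values were seen. A gene that this rule names is not reported here. The members and lists were chosen with earlier results of these data known. Alternatives were other pseudocounts, filters and scaling, no trend, a replicate block and each library left out. Positions are from GENCODE 44 (hg38), promoter windows from RefSeq (GRCh38.p14).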

Additional observations from a re-analysis of the deposited data

How the results depend on the processing

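None of the 10 enzymes passed the test under any alternative run. Of all values recomputed, 191 kept their direction and side of the threshold or stayed close to the reported value, 11 counts or values moved, 9 reversed and 6 no longer passed the threshold. When libraries were rescaled by their median ratios, the differences of all 10 genes rose by a similar amount, with their median going from -0.017 to 0.048 on the log2(TPM + 1) scale, and AKR1B1 (0.018) and AKR1C3 (0.0080), which lay just below 0, came to lie above it. With each library left out in turn (a line with 2 libraries left keeps the pooled spread), AKR1B1 ranged from -0.20 to 0.19, AKR1C2 from -0.0079 to 0.22, ALDH2 from -0.089 to 0.27 and ALDH9A1 from -0.078 to 0.12, so that their direction was not stable. AKR1B1 and ALDH2 turned without library 2 of A549-GFP and also without library 3 of A549-TIPARP, ALDH9A1 without library 2 or library 3 of A549-GFP, and AKR1C2 without library 2 of A549-GFP. Without library 2 of A549-GFP, 3 enzymes had a higher and 7 a lower mean in A549-TIPARP cells, with a median of -0.0046. The AKR1C sum (-0.05) became -0.26 with AKR1C1 alone and 0.13 with AKR1C2 alone. The causes were not tested.

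TIPARP stayed between 3.54 and 4.24 with each library left out, and its adjusted p (limma) was over 0.05 without library 1 (0.0515) or 3 (0.0739) of A549-GFP and without library 1 (0.0617) or 3 (0.0981) of A549-TIPARP. In these fits 0 to 18 genes passed the test as higher, with 18 without library 2 of A549-GFP, and 1 to 3 as lower, against 1 each with all libraries. Without a filter (14618 entries above the floor in at least 1 library, since those at the floor throughout could not be fitted with the trend) TIPARP was at 3.90 with an adjusted p of 0.0965 (limma), and 0 genes were called higher. With the replicate number as a block TIPARP was at 3.90 with an adjusted p of 0.513 (limma), 0 genes were called higher, and no enzyme was called. The same-numbered libraries share an experiment number, and whether they were paired in any other way is not given in the sources used here. Their deviations from the line means correlated at 0.415, -0.486 and -0.358 over genes. Of the 6 libraries library 1 of A549-TIPARP was the one that correlated best with its own number. These correlations cannot decide on pairing, because the deviations within a line depend on each other and library 2 of A549-GFP deviates most. The depth of the libraries is unknown, so what it limits could not be given.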

Other observations

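Other carbonyl and alcohol enzymes, a list that includes carbonyl reductases, prostaglandin reductases, alcohol dehydrogenases and short-chain retinal reductases, showed no difference that passed the test. Of 21 genes 18 were analysed, 11 higher and 7 lower in their mean in A549-TIPARP cells, and their median log2 fold change was 0.017. None had an adjusted or an unadjusted p under 0.05 (limma). PTGR1, a prostaglandin reductase, was at 350, 526 and 404 TPM in A549-GFP cells and at 329, 362 and 440 TPM in A549-TIPARP cells, with overlapping lines. CBR1, a carbonyl reductase of quinones and prostaglandins, was at 220, 205 and 200.2 TPM in A549-GFP cells and at 199, 189 and 164 TPM in A549-TIPARP cells. It was the one gene of this list whose lines did not overlap, with a log2 fold change of -0.18 (limma adjusted p = 0.994). DHRS3, which reduces retinal, was at 231 TPM in library 2 of A549-GFP and at 56.5 to 112 TPM in the other 5. DHRS9, chosen after its values were seen, was the one gene of the list past 1.5-fold, with 8.53 TPM in library 2 of A549-GFP and at most 1.61 TPM in the other 5.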
